A study of Mus musculus with 21 samples.

Results

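Lean monocyte-derived cells were set against lean CD11c-negative macrophages, both sorted by flow cytometry (FACS Aria III) from mouse adipose tissue that had been digested with collagenase. Membership was taken from the sample labels: the source name puts 3 libraries in each population, 6 of the 21 libraries of the series. All 6 came from male C57BL/6 mice kept on the normal diet, given in the labels as 16 weeks, with no transgene or deleted gene named in either population. The CD11c-negative macrophages are labelled as MHC class II positive and CD11c negative. The monocyte-derived cells came from a gate whose surface markers the labels do not give, so the name below is the labels' own. RNA was extracted with a PicoPure kit and amplified into libraries with the NuGen Ovation mouse RNA-seq kit, and 19842 of 54532 genes in the count table had enough reads to be tested. The same pair of populations from mice on the high fat diet (obese, 3 libraries each, also male C57BL/6 at 16 weeks) was used for 1 comparison at the end.

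Adipose tissue holds resident macrophages that lie along vessels and between adipocytes, take up dead cells, iron and lipid, and secrete growth factors. Blood monocytes that enter the tissue can become macrophages or cells with dendritic cell features. Dendritic cells take up antigen, load it on MHC class II, and on maturation gain the chemokine receptor CCR7, which guides them to lymph nodes. CD11c, the integrin encoded by Itgax, is carried by most dendritic cells and by some macrophages, and MHC class II is carried by both.

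The monocyte-derived libraries held 17274802, 20058521 and 11245851 counts (replicates 1, 2 and 3) and the CD11c-negative libraries 25439415, 25914583 and 22398499, and values by library below keep the order of replicates 1, 2 and 3. Monocyte-derived replicates were less alike than CD11c-negative replicates: log2 levels correlated at 0.916 to 0.949 among the monocyte-derived libraries and at 0.978 to 0.982 among the CD11c-negative libraries, and the common dispersion within each group was 0.174 and 0.0318. By lineage genes monocyte-derived replicate 2 stood apart from the other replicates, with higher macrophage genes and lower mature dendritic cell genes. Results that rest on it are given with and without it. Over all tested genes monocyte-derived replicates 1 and 2 correlated at 0.949, and replicate 3 at 0.922 with replicate 1 and 0.916 with replicate 2. Replicate 3 also had the fewest counts and the lowest protein-coding share. Levels are given in CPM, counts per 1000000 counts of the library, scaled by TMM except in the next sums, which use the unscaled library totals. Olfactory and vomeronasal receptor genes (1967 genes), which myeloid cells are not known to use, here serve as a measure of stray reads. Their sums came to 705, 334 and 1230 CPM in monocyte-derived libraries, against 134, 73 and 142 CPM in CD11c-negative libraries. The share of counts on protein-coding genes was 67.1% to 82.5% in monocyte-derived libraries and 77% to 81.7% in CD11c-negative libraries. The mitochondrial share was 2.23%, 1.04% and 2.42% in monocyte-derived libraries and 1.13% to 1.35% in CD11c-negative libraries, replicates 1 and 3 of the monocyte-derived cells being the highest. The part that these differences play in the calls was not tested, and counts of calls are therefore also given for genes with at least 10 CPM in the higher group. The labels do not say that replicates are separate animals, so each p-value measures the spread between these samples, which may be technical. In such bulk libraries fewer cells of a type and less RNA per cell cannot be told apart.

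The labels name CD11c and MHC class II for the CD11c-negative gate alone. That gate selected cells without CD11c, so low Itgax there came with the sort and its test is no separate result. No label says what the monocyte-derived cells should carry. Itgax is also a member of the conventional dendritic cell, complement, integrin and lipid-associated macrophage lists below, and its rise is counted in each of them. Itgax stood at 361, 299 and 303 CPM in monocyte-derived libraries, against 19.3, 16.6 and 14.9 CPM in CD11c-negative libraries. The groups did not overlap, and the log2 fold change of monocyte-derived over CD11c-negative was 4.24 ± 0.19 (standard error, adjusted p = 3.79e-06, edgeR's quasi-likelihood test with Benjamini-Hochberg adjustment, as for all adjusted p-values below). H2-Ab1, a class II beta chain, stood at 4884, 4209 and 3309 CPM in monocyte-derived libraries and at 2086, 2492 and 1815 CPM in CD11c-negative libraries. Every monocyte-derived library lay above every CD11c-negative one, with a log2 fold change of 0.96 ± 0.21 (adjusted p = 0.00985), but the call was lost without monocyte-derived replicate 1 or CD11c-negative replicate 1 or 3 (adjusted p up to 0.0877). H2-Aa, its alpha partner, and Ciita, the class II transactivator, had log2 fold changes of 0.49 ± 0.24 (adjusted p = 0.161) and 0.09 ± 0.16 (adjusted p = 0.719), and neither passed the test, although H2-Aa did without monocyte-derived replicate 3 (adjusted p = 0.049).

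Lineage genes set the monocyte-derived libraries apart from macrophages. Adgre1, which encodes F4/80, stood at 70.3, 175 and 94.6 CPM in monocyte-derived libraries, against 452, 506 and 488 CPM in CD11c-negative libraries (log2 fold change -2.09 ± 0.30, adjusted p = 0.00101). Mertk, a receptor for dead cells, stood at 3.17, 10.9 and 6.34 CPM in monocyte-derived libraries, against 129, 144 and 139 CPM in CD11c-negative libraries (-4.32 ± 0.38, adjusted p = 7.12e-05). Zbtb46, a transcription factor of conventional dendritic cells, went the other way, with 154, 51.3 and 150 CPM in monocyte-derived libraries and 11.4, 9.48 and 12.6 CPM in CD11c-negative libraries (3.41 ± 0.39, adjusted p = 0.000258). In all of these the groups did not overlap, and monocyte-derived replicate 2 was the library nearest to the CD11c-negative ones. Ly6c2, the marker of inflammatory monocytes, was low in both groups, at 5.36, 2.61 and 1.71 CPM in monocyte-derived libraries and 2.5, 2.43 and 3.02 CPM in CD11c-negative libraries (0.30 ± 0.44, adjusted p = 0.65). Ccr2, the receptor that draws monocytes from blood, was well expressed in both groups, at 348, 462 and 316 CPM in monocyte-derived libraries and 306, 189 and 205 CPM in CD11c-negative libraries, and did not pass the test (0.69 ± 0.23, adjusted p = 0.0514) unless monocyte-derived replicate 3 or CD11c-negative replicate 1 was left out. The labels' name thus stood beside low Ly6c2, Ccr2 well expressed in both groups, lower Adgre1 and Mertk, and higher Zbtb46. Of the monocyte list given below, 9 of 26 tested members were higher and 2 lower.

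**Figure D1:**
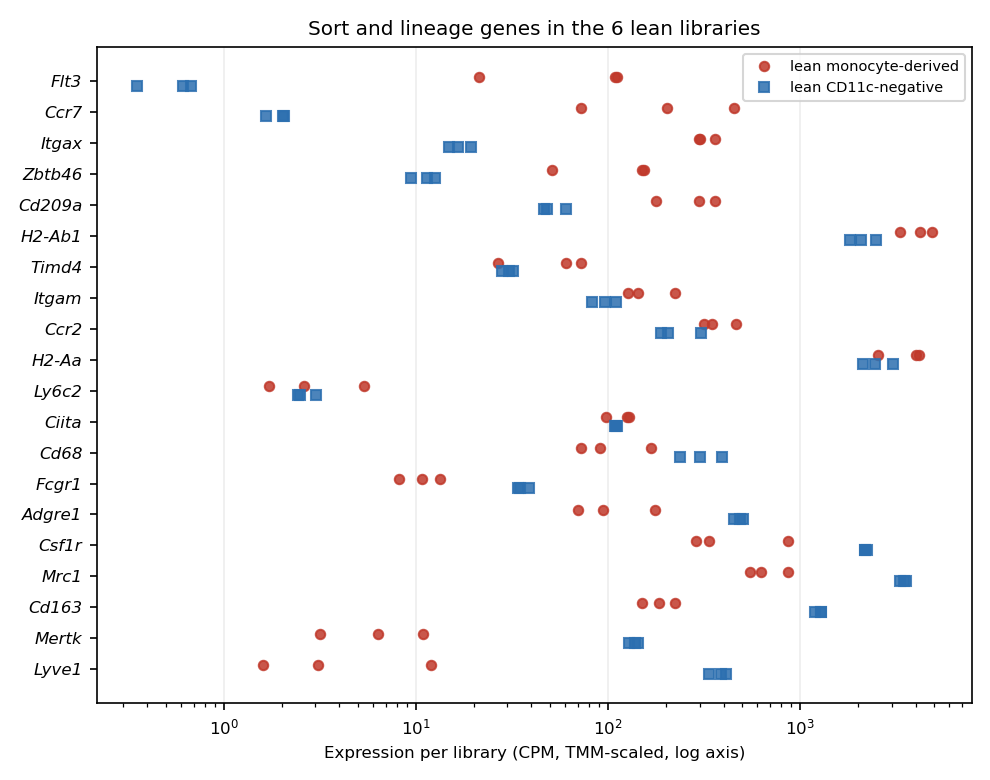
Level of 20 sort and lineage genes in each library, in CPM on a log axis; red circles are the 3 lean monocyte-derived libraries and blue squares, drawn lower in each row, the 3 lean CD11c-negative libraries. Itgax, Zbtb46, Flt3 and Ccr7 lie higher in monocyte-derived cells and Adgre1, Mertk, Csf1r and Lyve1 lower, with no overlap, while Ciita and Ly6c2 overlap.

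Of 19842 genes tested, 5386 passed an adjusted p of 0.05 (27.1%): 2469 were higher in monocyte-derived cells (12.4%) and 2917 lower (14.7%). Among the 8689 genes with at least 10 CPM in the higher group 3471 passed (39.9%), of which 1249 were higher (14.4% of the 8689) and 2222 lower (25.6%), so that falls made up more of the calls once weakly detected genes were set aside. The 3 libraries of 1 group all lay above the 3 of the other in 8934 genes (45.0%). The median log2 fold change was 0.05 over all genes tested and -0.10 over those at 10 CPM. Rises made up 45.8% of these calls. With no filter on low counts (47316 genes) rises made up 51.1% of the calls of edgeR, and 58.1% of those of DESeq2, which called 4416 higher and 3180 lower. Leaving out 1 library moved the counts: without monocyte-derived replicate 2 there were 4636 higher and 4376 lower genes, and without CD11c-negative replicate 2 the counts were 1219 higher and 2149 lower. They were 1719 and 2265 without monocyte-derived replicate 1, 1533 and 2225 without CD11c-negative replicate 1, and 1482 and 2167 without CD11c-negative replicate 3. Calls that stayed in each of the 6 fits with 1 library left out numbered 2775, of which 928 were higher and 1847 lower. Differences of at least 16-fold at 10 CPM or more were called for 119 genes, 43 higher and 76 lower.

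**Figure D2:**
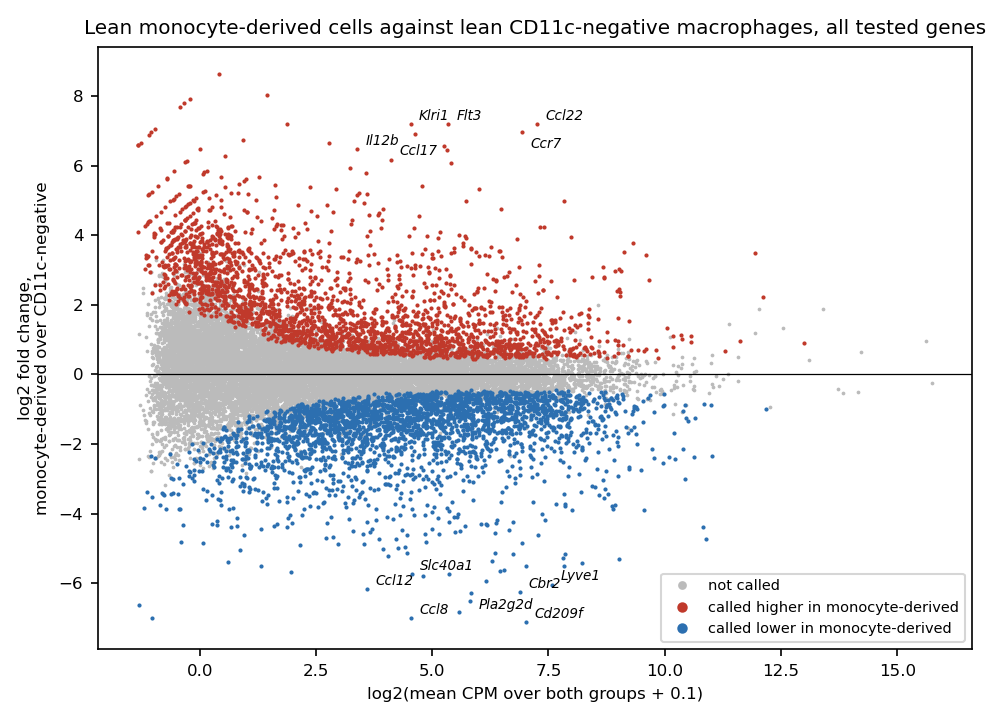
Each point is 1 of the 19842 genes tested. The x axis is the log2 of its mean CPM over both groups, with a small offset added. The y axis is its log2 fold change (monocyte-derived over CD11c-negative), and coloured points passed the test. Named genes at the top (Ccl22, Flt3, Ccr7) and the bottom (Cd209f, Ccl8, Lyve1) lie beyond 6 log2 units from 0.

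The largest rises were in genes of dendritic cells and of the killer lectin-like receptor family. Ccl22, a chemokine of mature dendritic cells that attracts regulatory T cells, stood at 591, 85.7 and 227 CPM in monocyte-derived libraries, against 1.71, 2.43 and 1.98 CPM in CD11c-negative libraries (log2 fold change 7.20 ± 0.71, adjusted p = 0.000134). Flt3, the growth factor receptor on which dendritic cells depend, stood at 111, 21.3 and 109 CPM in monocyte-derived libraries, against 0.675, 0.352 and 0.614 CPM in CD11c-negative libraries (7.19 ± 0.69, adjusted p = 9.83e-05). Ccr7 stood at 454, 72.3 and 202 CPM in monocyte-derived libraries, against 2.06, 2.04 and 1.65 CPM in CD11c-negative libraries (6.98 ± 0.66, adjusted p = 9.47e-05). Replicate 2 had the lowest of the monocyte-derived values in each of them, and still lay far above every CD11c-negative library. Klri1, a killer lectin-like receptor gene (chromosome 6, 129697218 to 129717132, GRCm38), stood at 65.1, 20.3 and 52 CPM in monocyte-derived libraries, against 0.754, 0.117 and 0 CPM in CD11c-negative libraries (7.21 ± 0.77, adjusted p = 0.000186), and Klrb1b of the same family rose by 6.58 ± 0.50. Il12b, a subunit of interleukins 12 and 23, stood at 39.4, 3.2 and 18.7 CPM in monocyte-derived libraries, against 0.437, 0.0783 and 0.142 CPM in CD11c-negative libraries (6.48 ± 0.97, adjusted p = 0.00113). The other 6 of the 12 largest rises by the naming rule were Apol7c, Siglecg, Ccl17, Strip2, Klrd1 and Sept3, with log2 fold changes of 5.78 to 6.92. Reads of killer lectin-like receptor genes can be shared between near-identical copies, and Klrb1b is overlapped by another gene on its strand, so values of single members are less certain. Exons of Ciita, Csf1r, Bcl11a, Dpp4, Clec9a, Tlr3, Stat4, Fn1, Cd74, Itga4, Pdgfa, Pdgfc, Ctsb, Cyp51 and Cd3e also overlap another gene, and other overlaps are given beside the gene.

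The largest falls were in genes of resident, perivascular macrophages. Cd209f, a C-type lectin gene of the SIGN family (chromosome 8, 4102787 to 4105835), stood at 0.577, 4.03 and 0.6 CPM in monocyte-derived libraries, against 259, 281 and 229 CPM in CD11c-negative libraries (log2 fold change -7.11 ± 0.63, adjusted p = 7.29e-05). Ccl8, a chemokine of such macrophages, stood at 0.404, 0.148 and 0.6 CPM in monocyte-derived libraries, against 45.7, 53.6 and 38.3 CPM in CD11c-negative libraries (-7.00 ± 0.37, adjusted p = 5.77e-06). Lyve1, a hyaluronan receptor that marks vessel-associated macrophages, stood at 1.61, 12 and 3.09 CPM in monocyte-derived libraries, against 410, 387 and 335 CPM in CD11c-negative libraries (-6.04 ± 0.65, adjusted p = 0.000186). No monocyte-derived library came near a CD11c-negative one in these genes. Pla2g2d, a secreted phospholipase, stood at 1.15, 1.52 and 1.71 CPM in monocyte-derived libraries, against 111, 123 and 102 CPM in CD11c-negative libraries (-6.27 ± 0.22, adjusted p = 1.58e-06). Slc40a1, which encodes the iron exporter ferroportin, stood at 0.231, 0.836 and 1.71 CPM in monocyte-derived libraries, against 39.4, 48.1 and 50.7 CPM in CD11c-negative libraries (-5.73 ± 0.46). The other 7 of the 12 largest falls were Ms4a14, Cd209g, Cbr2, Ccl12, C1qtnf1, Folr2 and Chp2, with log2 fold changes of -5.73 to -6.84. Cd209 and CC chemokine genes have close paralogs, and Folr2 and C1qtnf1 are overlapped by a gene on the opposite strand, which makes their values less certain.

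To place the groups of genes, 44 lists were counted in the same fit. Their counts are to be read beside the shares of all tested genes called, 12.4% higher and 14.7% lower. Resident macrophage genes were the most uniformly lower: 23 of 24 tested members fell and none rose, with a median log2 fold change of -4.39 beside 0.05 over all genes. Their summed level was 1524, 2414 and 1447 CPM in monocyte-derived libraries, against 17024, 16641 and 16789 CPM in CD11c-negative libraries. Stab1, a scavenger receptor, stood at 18.1, 28.5 and 30.9 CPM in monocyte-derived libraries, against 1059, 946 and 1046 CPM in CD11c-negative libraries (-5.30 ± 0.25, adjusted p = 4.66e-06). Gas6, the bridging ligand of Mertk and Axl, had 4.15, 12.8 and 12.3 CPM in monocyte-derived libraries and 459, 460 and 416 CPM in CD11c-negative libraries (-5.52 ± 0.40). Both are overlapped by genes on the opposite strand. Cd163, a haemoglobin scavenger receptor, stood at 184, 151 and 224 CPM in monocyte-derived libraries and 1195, 1282 and 1280 CPM in CD11c-negative libraries (-2.75 ± 0.20). Timd4, a phosphatidylserine receptor, was the member that did not pass the test, at 72.2, 26.9 and 60.5 CPM in monocyte-derived libraries and 32.1, 30.5 and 28 CPM in CD11c-negative libraries (0.82 ± 0.31, adjusted p = 0.0783), and it passed as higher when monocyte-derived replicate 2 was left out, where 1 member was higher and 23 lower.

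Core macrophage genes, those shared by most tissue macrophages, fell in 13 of 16 tested members with a median of -1.88, and none rose. Their sum was 3629, 8110 and 2627 CPM in monocyte-derived libraries and 9626, 9894 and 8987 CPM in CD11c-negative libraries, so that by its sum monocyte-derived replicate 2 lay nearest to the CD11c-negative libraries. That sum was carried by abundant members such as Lyz2 and Cd14, at 4891 and 960 CPM in replicate 2. Other members of the list stayed far lower in that replicate, with C5ar1 at 132 CPM, against 744 to 793 CPM in CD11c-negative libraries, and Siglec1 at 8.75 CPM, against 210.0 to 262 CPM in CD11c-negative libraries. Siglec1, a sialic acid receptor, fell by 4.85 ± 0.19 on the log2 scale (adjusted p = 2.02e-06). Csf1r, the receptor for macrophage colony-stimulating factor, stood at 335, 863 and 287 CPM in monocyte-derived libraries, against 2188, 2191 and 2231 CPM in CD11c-negative libraries (-2.15 ± 0.38, adjusted p = 0.00297). Lyz2, the lysozyme gene of all myeloid cells, was at a log2 fold change of 0.01 (adjusted p = 0.989). Among 22 transcription factors of macrophages, 15 fell and 1 rose. Maf stood at 26.8, 60.3 and 28.6 CPM in monocyte-derived libraries, against 435, 412 and 415 CPM in CD11c-negative libraries (-3.44 ± 0.31, adjusted p = 7.8e-05). Bhlhe41 and Bhlhe40, close relatives, went opposite ways: Bhlhe41 stood at 1.1, 1.18 and 1.8 CPM in monocyte-derived libraries and 42.2, 43.7 and 37.4 CPM in CD11c-negative libraries (-4.95), and Bhlhe40 at 770, 868 and 538 CPM in monocyte-derived libraries and 116, 117 and 84.9 CPM in CD11c-negative libraries (2.77). Spic, a factor of iron-handling macrophages, fell by 4.03, while Spi1, which encodes PU.1, did not pass the test (-0.60, adjusted p = 0.0889) but did without monocyte-derived replicate 2. Exons of Maf, Bhlhe40 and Bhlhe41 are overlapped by a gene on the opposite strand.

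Conventional dendritic cell genes rose in 13 of 23 tested members and fell in 3, with a median of 1.05. Dpp4, which encodes CD26, stood at 126, 43.7 and 97 CPM in monocyte-derived libraries, against 5.99, 3.96 and 6.47 CPM in CD11c-negative libraries (4.02 ± 0.39, adjusted p = 0.000109). Cd209a stood at 363, 179 and 297 CPM in monocyte-derived libraries and 60.7, 46.6 and 48.3 CPM in CD11c-negative libraries (2.43 ± 0.26, adjusted p = 0.00019), while the related Cd209f and Cd209g were among the largest falls. Btla, Cd24a and Kit rose by 5.22, 3.98 and 2.72. Markers of the XCR1-positive, cross-presenting subset did not move as 1 block: Clec9a rose by 2.63, Xcr1 and Itgae had log2 fold changes of -0.15 (adjusted p = 0.783) and 0.80 (adjusted p = 0.311), and Tlr3 and Irf8 fell. Irf8, a transcription factor that subset requires, stood at 49.3, 25.8 and 33.2 CPM in monocyte-derived libraries, against 112, 108 and 109 CPM in CD11c-negative libraries (-1.60 ± 0.23, adjusted p = 0.000929).

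Genes of mature, migrating dendritic cells rose in 18 of 26 tested members and fell in 1, with a median of 2.27. Their sum was 5752, 2734 and 3542 CPM in monocyte-derived libraries, against 2495, 2175 and 2504 CPM in CD11c-negative libraries, replicate 2 again being the nearest. Without that replicate 20 members were higher and 2 lower, with a median of 2.36. Traf1, a signalling adaptor of TNF receptors, stood at 566, 366 and 451 CPM in monocyte-derived libraries and 68.6, 54.8 and 88 CPM in CD11c-negative libraries (2.71 ± 0.24). Fscn1, which bundles actin in dendrites, stood at 218, 12.5 and 105 CPM in monocyte-derived libraries and 10.8, 9.01 and 9.63 CPM in CD11c-negative libraries (3.51 ± 0.78, adjusted p = 0.0101). Its level in replicate 2 was close to that of the CD11c-negative libraries, and the call was lost when any of the CD11c-negative libraries was left out (adjusted p up to 0.0758). Cacnb3, Pdcd1lg2 and Stat4 rose by 5.41, 3.90 and 3.52, while Cd83 (-0.30, adjusted p = 0.293) and Relb (0.39, adjusted p = 0.15) did not pass the test. Of 20 dendritic cell transcription factors 8 rose, among them Bcl11a (4.44 ± 0.43) and Runx3, and 2 fell. Without monocyte-derived replicate 2 the falls among these factors numbered 5. Runx3 stood at 207, 186 and 139 CPM in monocyte-derived libraries and 31.8, 22 and 14.9 CPM in CD11c-negative libraries (2.95).

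**Figure D3:**
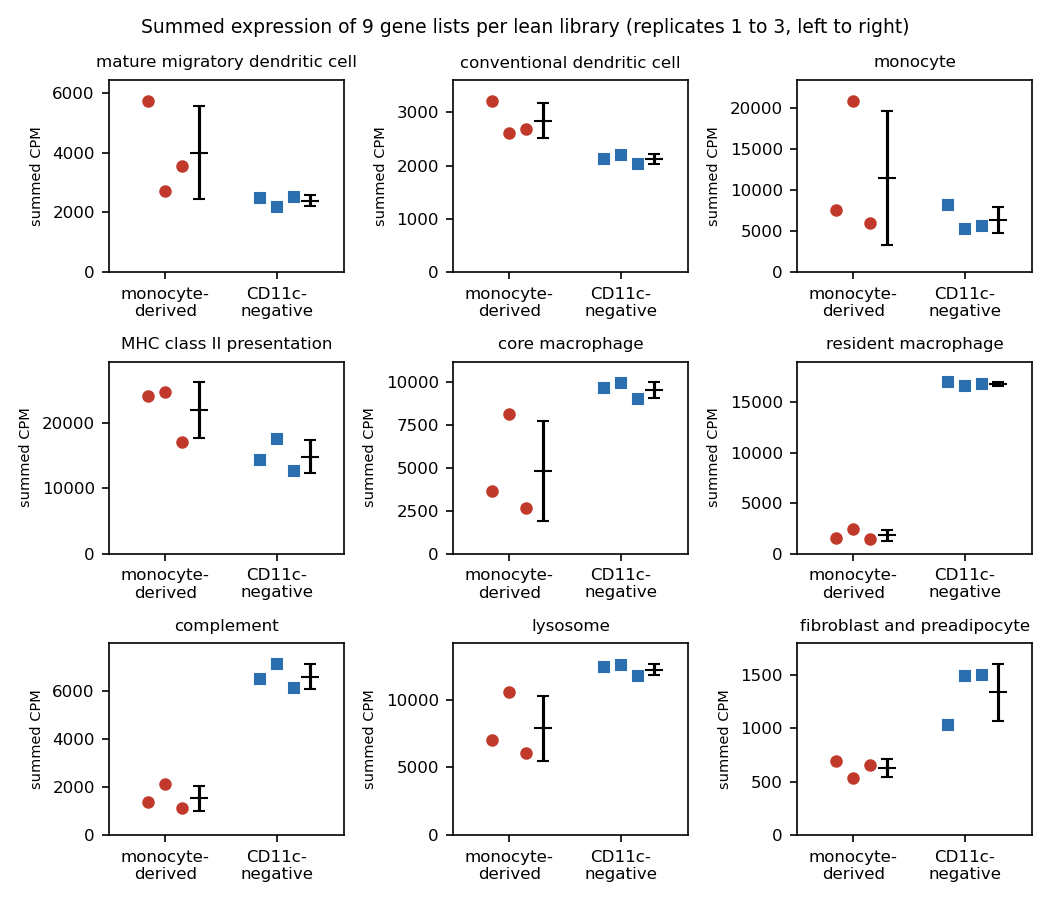
Summed CPM of 9 gene lists in each library, with red circles for the 3 lean monocyte-derived libraries, blue squares for the 3 lean CD11c-negative libraries and bars for the mean ± SD. Resident macrophage, complement and fibroblast sums are lower in every monocyte-derived library, and monocyte-derived replicate 2 is the highest of its group for core macrophage genes and the lowest for mature dendritic cell genes.

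Monocyte genes rose in 9 of 26 tested members and fell in 2, with a median of 0.80. Of the tested members 21 had a positive log2 fold change and 5 a negative one. The falls were F13a1, which is also in the resident macrophage list, and Cebpb, both overlapped by a gene on the opposite strand. The call of Cebpb stayed in 2 of the 6 fits with 1 library left out. Those that rose included Itgal (2.48), Plac8 (1.75) and Spn (1.69). Fn1, which encodes fibronectin, stood at 4010, 14371 and 3482 CPM in monocyte-derived libraries, against 2573, 987 and 1145 CPM in CD11c-negative libraries (2.22 ± 0.57, adjusted p = 0.0187), and in monocyte-derived libraries took the greater part of the sum of the list. The groups did not overlap, but the call was lost without CD11c-negative replicate 2 or 3 (adjusted p up to 0.113). Falls among monocyte genes numbered 1 without monocyte-derived replicate 1 or any of the CD11c-negative libraries. Itgam, which encodes CD11b and shares exon sequence with a gene on its own strand, stood at 143, 223 and 127 CPM in monocyte-derived libraries and 110, 82.6 and 96.7 CPM in CD11c-negative libraries (0.77 ± 0.23, adjusted p = 0.0332). Of the 6 fits with 1 library left out, the call stayed in 1, the fit without monocyte-derived replicate 3, and adjusted p reached 0.179 in the others.

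MHC class II presentation genes rose in 9 of 15 tested members and fell in 2, with a median of 0.84. The large differences lay in the less abundant members. H2-DMb2, a chain of the peptide-loading chaperone DM, stood at 128, 105 and 86.3 CPM in monocyte-derived libraries, against 11, 7.52 and 7.13 CPM in CD11c-negative libraries (3.63 ± 0.24, adjusted p = 1.89e-05). H2-Oa and H2-Ob encode DO, which restrains DM and is best known from B cells and dendritic cells. H2-Oa, overlapped by a gene on the opposite strand, stood at 20.1, 5.61 and 12.5 CPM in monocyte-derived libraries and 0.516, 0.313 and 0.472 CPM in CD11c-negative libraries (4.86 ± 0.52, adjusted p = 0.000185). H2-Ob stood at 68.2, 22.8 and 52 CPM in monocyte-derived libraries and 4.84, 6.03 and 5.71 CPM in CD11c-negative libraries (3.11 ± 0.37, adjusted p = 0.000319). In each gene every monocyte-derived library lay above every CD11c-negative one. H2-Eb2, a second E beta chain, rose by 3.37 ± 0.63 (adjusted p = 0.00389). The abundant H2-Eb1 (0.57, adjusted p = 0.0814) and Cd74, the invariant chain (0.43, adjusted p = 0.187), did not pass the test, although H2-Eb1 did without monocyte-derived replicate 3. March1, a ligase that removes class II from the surface, stood at 21.2, 27 and 25.6 CPM in monocyte-derived libraries and 66.9, 59.6 and 64.3 CPM in CD11c-negative libraries (-1.37 ± 0.17), and its exons are overlapped by a gene on the opposite strand. The count of rises was 4 without monocyte-derived replicate 1, CD11c-negative replicate 1 or CD11c-negative replicate 3, and the count of falls was 1 without CD11c-negative replicate 1 or 2.

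Class II promoters share a group of short elements that includes the Y box, bound by the factor NF-Y, whose core is written ATTGG. The sequence 250 bases upstream of the start of the 4 class II genes with the largest rises, and of H2-Aa, which did not pass the test, is printed to show where this core lies in genes that differed and in 1 that did not; all lie on mouse chromosome 17 and were taken from RefSeq on GRCm38.p6. They cover chr17:34092129-34092378 (plus strand) for H2-Oa, chr17:34238655-34238904 (plus strand) for H2-Ob, chr17:34144999-34145248 (plus strand) for H2-DMb2, chr17:34325425-34325674 (plus strand) for H2-Eb2 and chr17:34287824-34288073 (minus strand) for H2-Aa. Each is written 5′ to 3′ along the gene, with ATTGG in capitals.
H2-Oa: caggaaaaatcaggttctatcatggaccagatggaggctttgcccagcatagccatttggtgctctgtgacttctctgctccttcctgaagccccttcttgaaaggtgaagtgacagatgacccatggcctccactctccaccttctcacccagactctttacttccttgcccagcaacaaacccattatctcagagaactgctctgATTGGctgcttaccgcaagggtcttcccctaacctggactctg
H2-Ob: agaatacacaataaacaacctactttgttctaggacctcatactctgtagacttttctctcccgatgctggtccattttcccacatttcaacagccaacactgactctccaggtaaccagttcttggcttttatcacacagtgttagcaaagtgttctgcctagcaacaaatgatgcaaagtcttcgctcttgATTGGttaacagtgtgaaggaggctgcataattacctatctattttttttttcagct
H2-DMb2: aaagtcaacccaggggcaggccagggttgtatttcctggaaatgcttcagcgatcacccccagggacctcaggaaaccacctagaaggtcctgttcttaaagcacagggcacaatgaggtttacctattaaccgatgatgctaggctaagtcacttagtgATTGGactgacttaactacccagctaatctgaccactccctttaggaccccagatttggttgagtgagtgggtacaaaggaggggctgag
H2-Eb2: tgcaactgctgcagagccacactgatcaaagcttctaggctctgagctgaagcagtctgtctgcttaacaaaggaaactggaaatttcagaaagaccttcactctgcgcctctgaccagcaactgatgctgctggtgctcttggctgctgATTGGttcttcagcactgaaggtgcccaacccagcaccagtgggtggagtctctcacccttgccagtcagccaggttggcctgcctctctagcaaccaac
H2-Aa: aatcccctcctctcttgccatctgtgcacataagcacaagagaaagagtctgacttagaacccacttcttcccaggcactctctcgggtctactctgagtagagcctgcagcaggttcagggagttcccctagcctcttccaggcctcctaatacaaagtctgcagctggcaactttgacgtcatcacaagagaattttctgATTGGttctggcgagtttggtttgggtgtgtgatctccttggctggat
The core starts 43 bases before the RefSeq start of H2-Oa, 57 before H2-Ob, 90 before H2-DMb2, 100 before H2-Eb2 and 48 before H2-Aa. In the GENCODE annotation matched to the counts H2-DMb2 spans 34143307 to 34151555, so its printed window lies inside that gene. Searched on both strands, ATTGG was found in the window of 8 of 8 class II presentation genes that have one in the table, and in 11120 of all 32851 promoter windows (33.8%). The core was therefore present in genes that rose and in H2-Aa alike, a match is a description of letters and not of binding, and the motif was picked after the values had been seen.

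Costimulatory and checkpoint ligands rose in 8 of 21 tested members and fell in 2, with a median of 0.55. Cd80 stood at 242, 176 and 189 CPM in monocyte-derived libraries, against 60, 51.1 and 47.2 CPM in CD11c-negative libraries (1.94 ± 0.18, adjusted p = 9.55e-05). Its partner ligand Cd86 went the other way, with 343, 329 and 293 CPM in monocyte-derived libraries and 512, 474 and 545 CPM in CD11c-negative libraries (-0.67 ± 0.16, adjusted p = 0.0122, and 0.0592 without CD11c-negative replicate 3). Tnfsf4, which encodes OX40 ligand, rose by 4.31, Havcr2 by 2.53 and Icosl by 2.12. Vsir, which encodes the inhibitory ligand VISTA, fell by 1.06, and Cd40 did not pass the test (0.55, adjusted p = 0.259) but did without monocyte-derived replicate 2. Falls numbered 5 without monocyte-derived replicate 2 and 1 without CD11c-negative replicate 3.

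**Figure D4:**
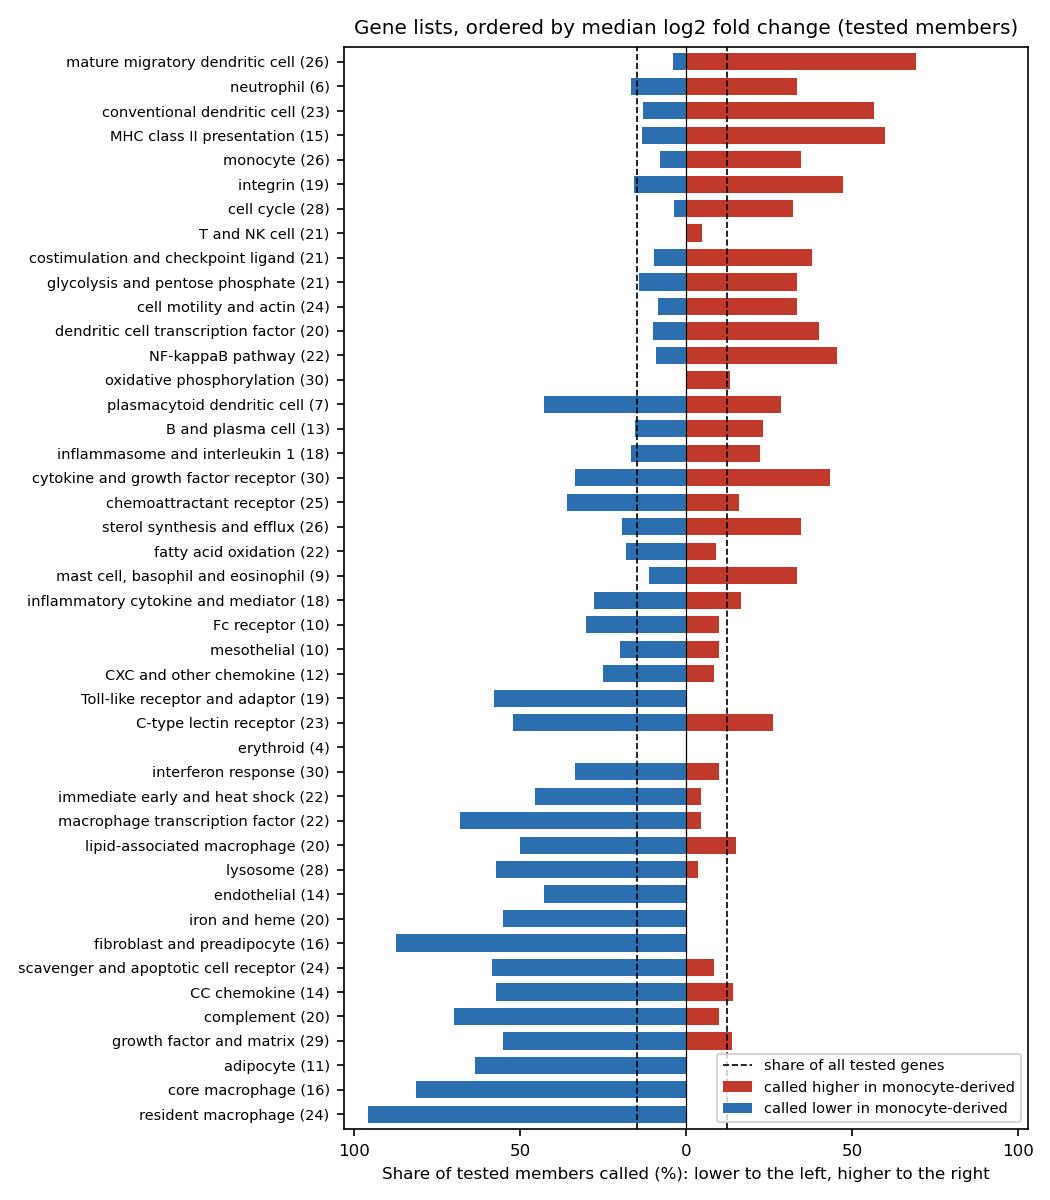
Share of tested members of each of 44 gene lists that were called lower (bars to the left) or higher (bars to the right) in monocyte-derived cells, ordered by median log2 fold change; the dashed lines mark the share of all tested genes called, 14.7% lower and 12.4% higher. Resident macrophage genes lie at one end of the order and mature dendritic cell genes at the other.

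Among chemokines more members were called lower than higher. Of 14 CC chemokines 8 fell and 2, Ccl22 and Ccl17, rose, with a median of -1.60. Of all genes tested 14.7% were lower and 12.4% higher, so the CC chemokine rises were near the share of all genes. Ccl2, the main attractant of monocytes, stood at 34.7, 90.7 and 29.7 CPM in monocyte-derived libraries, against 510, 532 and 576 CPM in CD11c-negative libraries (-3.38 ± 0.40). Ccl7, another monocyte attractant, averaged 19.3 ± 5.61 CPM in monocyte-derived libraries and 310 ± 24.2 CPM in CD11c-negative libraries (SD, n = 3 each), with no overlap. Without monocyte-derived replicate 1 or CD11c-negative replicate 2 the CC chemokine falls numbered 5. Of 12 other chemokines Cx3cl1 rose by 2.50 and 3 fell, Pf4, Cxcl12 and Cxcl13, and 5 fell without monocyte-derived replicate 2. Pf4, or platelet factor 4, stood at 2.77, 28.4 and 2.14 CPM in monocyte-derived libraries and 376, 608 and 329 CPM in CD11c-negative libraries (-5.27). Among 25 chemoattractant receptors 4 rose and 9 fell. The leukotriene B4 receptor gene Ltb4r1 stood at 41.2, 60.2 and 35.8 CPM in monocyte-derived libraries and 4.41, 0.94 and 2.08 CPM in CD11c-negative libraries (4.21 ± 0.48), and the complement peptide receptors C5ar1 and C3ar1 fell by 3.28 and 3.78. C3ar1 stood at 32.6, 124 and 32.9 CPM in monocyte-derived libraries and 801, 883 and 932 CPM in CD11c-negative libraries.

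Among receptors of uptake and complement proteins, more members were called lower than higher. Of 24 scavenger and dead cell receptors 14 fell and 2 rose, with a median of -1.51 and a sum of 3034, 4821 and 2948 CPM in monocyte-derived libraries, against 13159, 13492 and 12627 CPM in CD11c-negative libraries. Mrc1, the mannose receptor, stood at 629, 868 and 552 CPM in monocyte-derived libraries and 3466, 3331 and 3578 CPM in CD11c-negative libraries (-2.34 ± 0.21, adjusted p = 8.09e-05), and Msr1, Cd36 and Colec12 fell by 3.09, 2.54 and 3.59. Of 20 complement genes 14 fell and 2, Itgax and Itgam, rose, with a median of -1.74. Without monocyte-derived replicate 1 or 2 or any of the CD11c-negative libraries 1 rose, Itgax, whose low level in CD11c-negative cells came with the sort. C4b stood at 8.88, 18.9 and 13.2 CPM in monocyte-derived libraries and 621, 485 and 652 CPM in CD11c-negative libraries (-5.42 ± 0.31, adjusted p = 8.61e-06). C1qa, a chain of the opsonin C1q, stood at 30.1, 146 and 23.5 CPM in monocyte-derived libraries and 868, 1143 and 702 CPM in CD11c-negative libraries (-3.76 ± 0.66, adjusted p = 0.00298). Summed markers of fibroblasts, which also make several complement proteins, were 535 to 688 CPM in monocyte-derived libraries and 1026 to 1494 CPM in CD11c-negative libraries, and their part in these falls was not tested.

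Pattern receptors also differed by kind. Of 19 Toll-like receptors and adaptors 11 fell and none rose, with a median of -0.73. Without monocyte-derived replicate 1 there were 6 falls, and without monocyte-derived replicate 2 there was 1 rise. Tlr5, the receptor for flagellin, stood at 6.63, 7.13 and 5.92 CPM in monocyte-derived libraries, against 61, 58.6 and 56.9 CPM in CD11c-negative libraries (-3.16 ± 0.17, adjusted p = 6.93e-06). Tlr7, a sensor of single-stranded RNA, stood at 11, 18.3 and 9.26 CPM in monocyte-derived libraries and 153, 172 and 169 CPM in CD11c-negative libraries (-3.67 ± 0.26). Of 23 C-type lectins 12 fell and 6 rose, with a median of -0.74, and Ly75, which encodes the dendritic cell lectin DEC-205 and is overlapped by a gene on the opposite strand, rose by 4.59. Of 10 Fc receptors 3 fell and 1, Fcer2a, rose, beside 14.7% lower and 12.4% higher of all genes tested. The falls numbered 6 without monocyte-derived replicate 2, and no Fc receptor rose without monocyte-derived replicate 1 or any of the CD11c-negative libraries. Fcgr1, which encodes CD64, stood at 13.4, 10.8 and 8.15 CPM in monocyte-derived libraries and 33.9, 38.9 and 34.8 CPM in CD11c-negative libraries (-1.72 ± 0.21, adjusted p = 0.000406).

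Among genes of adhesion and movement, more members were called higher than lower. Of 19 integrins 9 rose and 3 fell, with a median of 0.77. Itgb7, the beta chain that pairs with alpha 4 and alpha E in gut homing, stood at 244, 147 and 240 CPM in monocyte-derived libraries, against 16.2, 11.9 and 14.3 CPM in CD11c-negative libraries (3.90 ± 0.25, adjusted p = 1.43e-05), and Itga4 rose by 1.88. Itga9 and Itgb5 fell by 4.27 and 2.04. Of 24 genes of motility and the actin skeleton 8 rose and 2 fell. Myo1g, a myosin of blood cells, stood at 931, 561 and 666 CPM in monocyte-derived libraries and 115, 95.4 and 98.5 CPM in CD11c-negative libraries (2.80). Motility rises numbered 5 when CD11c-negative replicate 1, 2 or 3 was left out, and falls numbered 1 in those fits and without monocyte-derived replicate 1.

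Cytokine and growth factor receptors moved both ways, with 13 of 30 tested members higher, 10 lower and a median of 0.12. Il7r, the interleukin 7 receptor alpha chain, stood at 154, 124 and 108 CPM in monocyte-derived libraries, against 14.6, 8.3 and 12.6 CPM in CD11c-negative libraries (3.44 ± 0.25). Csf2rb, the signalling chain for GM-CSF, stood at 948, 861 and 733 CPM in monocyte-derived libraries and 209, 131 and 142 CPM in CD11c-negative libraries (2.40 ± 0.22), and shares exon sequence with a gene on its own strand. Tgfbr2, the type II receptor for TGF-beta, stood at 78.2, 74.5 and 55.1 CPM in monocyte-derived libraries and 504, 464 and 543 CPM in CD11c-negative libraries (-2.86 ± 0.19). The groups did not overlap in any of these. Receptors for growth factors of both lineages were thus split, with Flt3 and Csf2rb higher and Csf1r lower. Receptor rises numbered 8 without CD11c-negative replicate 1 or 3, and falls numbered 6 without CD11c-negative replicate 2.

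Inflammatory genes showed no common direction. Il1b stood at 1274, 659 and 659 CPM in monocyte-derived libraries, against 128, 61.9 and 141 CPM in CD11c-negative libraries (2.97 ± 0.37, adjusted p = 0.000421), with reads that an antisense gene could share, and Il1r2, the decoy receptor for interleukin 1, rose by 4.56 ± 0.42. Tnf stood at 21.3, 68.7 and 23.8 CPM in monocyte-derived libraries and 158, 242 and 315 CPM in CD11c-negative libraries (-2.65 ± 0.45, adjusted p = 0.00242). Il10 fell by 2.02 ± 0.51 (adjusted p = 0.0175, and up to 0.0871 without monocyte-derived replicate 3 or CD11c-negative replicate 2 or 3), and Il6 did not pass the test (0.44, adjusted p = 0.441). Of 18 inflammatory mediators 3 rose and 5 fell, beside 12.4% higher and 14.7% lower of all genes tested. The falls numbered 3 without monocyte-derived replicate 1, monocyte-derived replicate 3 or CD11c-negative replicate 3 and 2 without CD11c-negative replicate 2. Of 18 inflammasome and interleukin 1 genes 4 rose and 3 fell, with 1 fall without monocyte-derived replicate 1 or CD11c-negative replicate 3 and 5 without monocyte-derived replicate 2. Of 22 NF-kB pathway genes 10 rose and 2 fell, with 1 fall without monocyte-derived replicate 1 or CD11c-negative replicate 3. Tnip3, an inhibitor of the pathway, stood at 1005, 895 and 876 CPM in monocyte-derived libraries and 124, 90.1 and 128 CPM in CD11c-negative libraries (3.02 ± 0.20), and Map3k14, the kinase of its noncanonical arm, rose by 2.68. Map3k14 shares exon sequence with a gene on its strand. Of 30 interferon response genes 10 fell and 3 rose, and no member rose without monocyte-derived replicate 1 or CD11c-negative replicate 1 or 2. Rsad2, an antiviral enzyme, stood at 12.2, 13 and 10 CPM in monocyte-derived libraries and 26.5, 37.9 and 136 CPM in CD11c-negative libraries (-2.50), with CD11c-negative replicate 3 far above the other two.

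Secreted growth factors and matrix genes fell in 16 of 29 tested members and rose in 4, with a median of -1.75. Igf1 stood at 22.9, 39.5 and 23 CPM in monocyte-derived libraries, against 362, 440 and 330 CPM in CD11c-negative libraries (-3.73 ± 0.26). Hbegf, a ligand of the EGF receptor, stood at 6.17, 13.4 and 6.69 CPM in monocyte-derived libraries and 136, 156 and 187 CPM in CD11c-negative libraries (-4.18 ± 0.32). Pdgfc, Bmp2, Gdf15 and Pdgfa fell by 4.83, 4.37, 4.24 and 4.09, and Mmp12, an elastase of macrophages overlapped by a gene on the opposite strand, rose by 2.57. The fibroblast marker sums given above also stood beside these falls, and their part was not tested.

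Genes of iron handling fell in 11 of 20 tested members and none rose, with a median of -1.15, and 16 fell without monocyte-derived replicate 2. Tfrc, the transferrin receptor, stood at 28.5, 24.6 and 21.2 CPM in monocyte-derived libraries, against 172, 167 and 170 CPM in CD11c-negative libraries (-2.78 ± 0.17). Hmox1, haem oxygenase, stood at 122, 790 and 150 CPM in monocyte-derived libraries and 1520, 2326 and 1615 CPM in CD11c-negative libraries (-2.36 ± 0.64, adjusted p = 0.0244). It stayed called in 1 of the 6 fits with a library left out, the fit without monocyte-derived replicate 2, and adjusted p reached 0.104 in the others.

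Lysosomal genes fell in 16 of 28 tested members and rose in 1, with a median of -1.07 and a sum of 7051, 10598 and 6049 CPM in monocyte-derived libraries, against 12426, 12563 and 11740 CPM in CD11c-negative libraries. Ctsb, a cathepsin, stood at 402, 839 and 317 CPM in monocyte-derived libraries and 2627, 2823 and 2534 CPM in CD11c-negative libraries (-2.36). No lysosomal gene rose without monocyte-derived replicate 1 or 2 or any of the CD11c-negative libraries. Genes of lipid-associated macrophages fell in 10 of 20 tested members and rose in 3. Trem2, their lipid receptor, stood at 6.29, 5.85 and 6 CPM in monocyte-derived libraries and 26.6, 29.1 and 18.9 CPM in CD11c-negative libraries (-2.04 ± 0.22), and Cd9, a surface marker of such cells that is overlapped by a gene on the opposite strand, rose by 2.46. Sterol genes moved both ways. Cyp51, an enzyme of cholesterol synthesis, and Srebf2, the transcription factor that drives that pathway, rose by 1.37 and 0.94. Apoe, which carries lipid out of macrophages, stood at 102, 284 and 110 CPM in monocyte-derived libraries and 3318, 4168 and 2947 CPM in CD11c-negative libraries (-4.39 ± 0.42, adjusted p = 9.92e-05), and Abca1, a cholesterol exporter, fell by 2.42. Synthesis and export did not each go 1 way: the synthesis enzyme Sqle was called lower (-0.72) and the exporter Abcg1 higher (0.67). With a library left out, the call of Sqle held without monocyte-derived replicate 2 or 3 and that of Abcg1 without monocyte-derived replicate 3, and both were lost in the other fits. In all 9 of 26 sterol genes rose and 5 fell. The rises numbered 5 without CD11c-negative replicate 1 or 2, and the falls 3 without monocyte-derived replicate 1 or any of the CD11c-negative libraries and 9 without monocyte-derived replicate 2.

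Energy metabolism and the cell cycle gave small differences that moved with the libraries. Glycolysis and pentose phosphate genes rose in 7 of 21 tested members and fell in 3. Rises numbered 12 without monocyte-derived replicate 3, 4 without CD11c-negative replicate 2 and 3 without CD11c-negative replicate 3, and falls numbered 5 without monocyte-derived replicate 2. Pfkp, a phosphofructokinase gene overlapped by a gene on the opposite strand, stood at 612, 641 and 563 CPM in monocyte-derived libraries and 237, 262 and 281 CPM in CD11c-negative libraries (1.22 ± 0.16). Oxidative phosphorylation genes rose in 4 of 30 and none fell, a share of rises close to the 12.4% of all genes. With all 21 libraries 14 rose and with no filter 1, and the rises numbered 9 without monocyte-derived replicate 3, 2 without monocyte-derived replicate 2 and 1 without monocyte-derived replicate 1 or any of the CD11c-negative libraries. Fatty acid oxidation genes rose in 2 of 22 and fell in 4, shares near the 12.4% higher and 14.7% lower of all genes tested. Their rises numbered 1 without any single library other than monocyte-derived replicate 3, and their falls 7 without monocyte-derived replicate 2 and 2 without monocyte-derived replicate 1 or CD11c-negative replicate 2. Cell cycle genes rose in 9 of 28 and fell in 1. They rose in 16 with all 21 libraries and in 4 with no filter, with rises numbering 3 without CD11c-negative replicate 1 or 2 and 2 without CD11c-negative replicate 3. The single fall was not called without monocyte-derived replicate 1 or 3 or CD11c-negative replicate 2 or 3, and 2 falls were called without monocyte-derived replicate 2. Top2a, a topoisomerase of dividing cells that shares exon sequence with a gene on its strand, stood at 54.5, 51.4 and 55.7 CPM in monocyte-derived libraries and 27.4, 34.8 and 21.1 CPM in CD11c-negative libraries (0.96, adjusted p = 0.00718, and 0.0579 without CD11c-negative replicate 3).

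Immediate early and heat shock genes, which tissue digestion can raise, fell in 10 of 22 tested members and rose in 1, with a median of -0.88 and a sum of 10286, 14861 and 7945 CPM in monocyte-derived libraries, against 16189, 20264 and 19616 CPM in CD11c-negative libraries. The falls numbered 17 without monocyte-derived replicate 2, 4 without monocyte-derived replicate 1 and 5 without CD11c-negative replicate 2. The rise, in Ier2, stayed called in 1 of the 6 fits with a library left out, the fit without monocyte-derived replicate 3. These genes moved in the same direction as Tnf and the CC chemokines, which the same stimulus can raise, and their part in those falls was not tested.

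Markers of other cell types were not equal, and among the sums given here those of fibroblasts and adipocytes were the highest. Fibroblast markers summed to 535 to 688 CPM in monocyte-derived libraries and 1026 to 1494 CPM in CD11c-negative libraries. T and NK cell markers summed to 157, 145 and 127 CPM in monocyte-derived libraries and 49.9, 50 and 52.6 CPM in CD11c-negative libraries. Of 21 tested members 1, Klrk1, passed the test, at 91.7, 57.1 and 54.5 CPM in monocyte-derived libraries and 5.08, 3.33 and 3.54 CPM in CD11c-negative libraries (4.09 ± 0.28), whereas Cd3e, a chain of the T cell receptor complex, stayed at or under 4.38 CPM in every library. Without monocyte-derived replicate 1 or 2, 2 or 3 members were higher, and without monocyte-derived replicate 3 1 member was lower. The NK family genes Klri1, Klrb1b and Klrd1 rose beside this list, and the part of NK cells in those rises was not tested. Mast cell, basophil and eosinophil markers, which include Siglecf, summed to 29.9 to 62.9 CPM in monocyte-derived libraries and 17.6 to 27.7 CPM in CD11c-negative libraries. Kit, also in the conventional dendritic cell list, averaged 28.7 CPM in monocyte-derived libraries and 4.35 CPM in CD11c-negative libraries. Of the 9 tested members of the mast cell list 3 were called higher and 1 lower, and 6 had a negative log2 fold change (median -0.24). B and plasma cell markers summed to 97.8 to 160 CPM in monocyte-derived libraries and 201 to 212 CPM in CD11c-negative libraries. That sum was mostly Ighm, at a mean of 83.7 CPM in monocyte-derived libraries and 170 CPM in CD11c-negative libraries. Of its 13 tested markers 9 had a positive log2 fold change (median 0.30), with 3 called higher and 2 lower. Plasmacytoid dendritic cell markers summed to 115 to 189 CPM in monocyte-derived libraries and 306 to 311 CPM in CD11c-negative libraries, neutrophil markers to 22.3 to 25.5 CPM in monocyte-derived libraries and 61.4 to 79.7 CPM in CD11c-negative libraries, and endothelial markers to 111 to 118 CPM in monocyte-derived libraries and 248 to 266 CPM in CD11c-negative libraries. The B cell, plasmacytoid, neutrophil and endothelial sums did not overlap between the groups. The plasmacytoid sum was mostly Tcf4, at a mean of 102 CPM in monocyte-derived libraries and 247 CPM in CD11c-negative libraries. Of its 7 tested markers 4 had a positive log2 fold change (median 0.35). Runx2, overlapped by a gene on the opposite strand, and Spib were called higher, and 3 markers lower. The neutrophil sum was mostly Csf3r, which fell by 2.09 and stood at 16.3 ± 1.6 CPM in monocyte-derived libraries and 69.9 ± 10.5 CPM in CD11c-negative libraries (SD, n = 3 each). Of the 6 tested neutrophil markers 5 had a positive log2 fold change, with a median of 1.66, and Cxcr2 and Ltf, at under 3 CPM in every library, were called higher. Of 16 fibroblast markers 14 fell, of 14 endothelial markers 6 fell, and of 11 adipocyte markers 7 fell, and none of these rose. Adipocyte marker sums overlapped, at 376 to 1220 CPM in monocyte-derived libraries and 505 to 572 CPM in CD11c-negative libraries.

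The same contrast was then set beside that in mice on the high fat diet, to ask where the difference between the populations depends on diet. In 1 fit over the 12 libraries, 643 of 21557 genes tested had a contrast that differed between the diets (2.98%), 206 with a larger log2 fold change in lean mice and 437 with a smaller one. In the obese contrast itself 4185 genes were called (19.4%). The 24 genes of the largest lean rises and falls, chosen as the most extreme and stable lean calls, had the same sign and were called in obese mice, and for 2 of them, Pla2g2d and Ms4a14, the difference between diets was called. On both diets the CD11c-negative gate selected cells without CD11c, so Itgax levels there are bound up with the sort and its test is no separate result. The rise of Itgax was larger in lean mice by 2.24 ± 0.26 on the log2 scale (adjusted p = 0.00116): it stood at 319 ± 35.4 CPM in lean monocyte-derived samples and 17 ± 2.36 CPM in lean CD11c-negative cells, against 341 ± 35.4 CPM in obese monocyte-derived cells and 85.8 ± 22 CPM in obese CD11c-negative cells (SD, n = 3 each, as below). Il7r was alike, at 128 ± 23.2 CPM in lean monocyte-derived samples and 11.8 ± 3.3 CPM in lean CD11c-negative cells, against 133 ± 27.8 CPM in obese monocyte-derived cells and 107 ± 15.1 CPM in obese CD11c-negative cells (difference 3.12 ± 0.31, adjusted p = 0.000415). In both genes the monocyte-derived levels lay close together across diets and the CD11c-negative levels lay apart. Pla2g2d stood at 1.45 ± 0.281 CPM in lean monocyte-derived samples and 112 ± 10.7 CPM in lean CD11c-negative cells, against 0.55 ± 0.0784 CPM in obese monocyte-derived cells and 5.39 ± 2.21 CPM in obese CD11c-negative cells (difference -2.99 ± 0.44, adjusted p = 0.00399). Tlr5 stood at 6.52 ± 0.593 CPM in lean monocyte-derived samples and 58.8 ± 2.51 CPM in lean CD11c-negative cells, against 19.5 ± 5.77 CPM in obese monocyte-derived cells and 14 ± 3.57 CPM in obese CD11c-negative cells (difference -3.64 ± 0.30, adjusted p = 0.0002). For Adgre1 (0.03, adjusted p = 0.978), Zbtb46 (-0.01, adjusted p = 0.995) and Ccr7 (-0.14, adjusted p = 0.947) no difference between diets was called, and their contrast had the same sign on both diets. The count of 643 depended on the libraries: it was 2371 without lean monocyte-derived replicate 2, 374, 410 and 244 without lean CD11c-negative replicate 1, 2 or 3, 311 and 229 without obese monocyte-derived replicate 2 or 3, and 256 without obese CD11c-negative replicate 2 or 3.

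**Figure D5:**
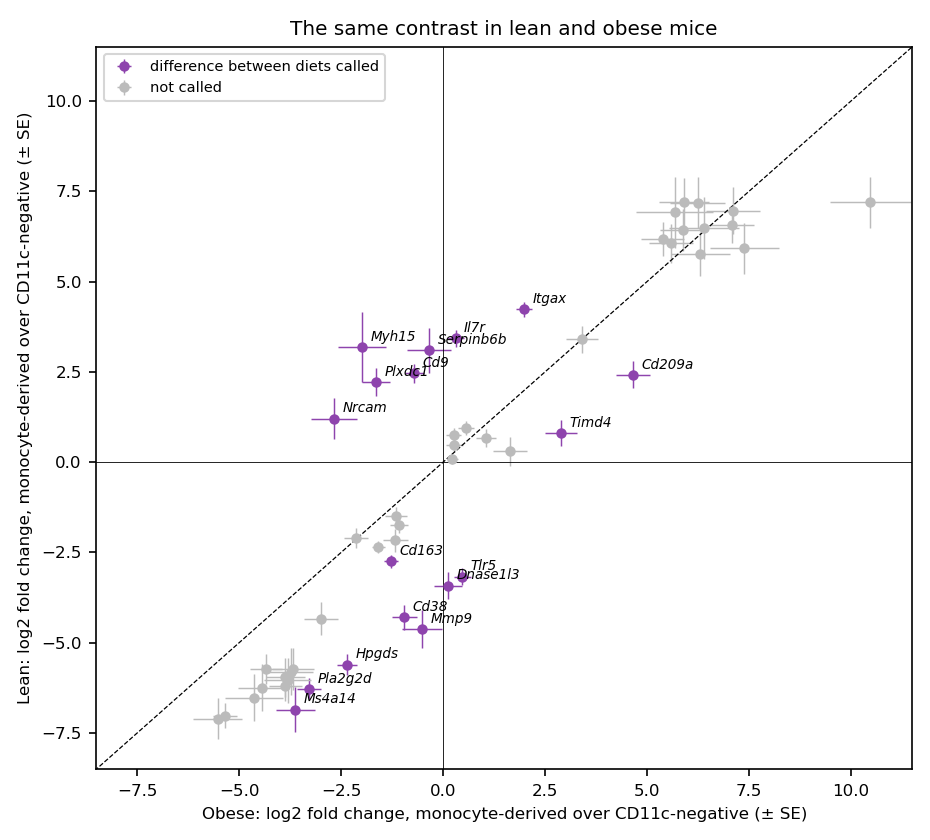
Log2 fold change of monocyte-derived over CD11c-negative cells in obese (x axis) and lean mice (y axis), with bars for the standard error, for the 24 largest lean rises and falls, the sort and lineage genes and the largest differences between diets; purple points passed the test of the difference and the dashed line marks equal values. Itgax and Il7r lie above the line and Pla2g2d and Tlr5 below it, while Ccr7, Zbtb46 and Adgre1, among the grey points, lie on or near it.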

How the data were processed

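RNA-seq libraries of sorted myeloid cells were analysed from the deposited counts of reads per gene. The submitters' processing notes name GRCm38 and the tools STAR 2.6.0a, Trim Galore 0.4.5, featureCounts (Subread 1.4.6-p5) and bcl2fastq. Strand use by featureCounts was not given in the sources used here: overlapping genes may share reads, and of the 188 named genes 40 have an exon that overlaps a gene on the opposite strand and 7 one on the same strand. Reads of near-identical family members can also be shared. Of 54532 gene IDs, 53315 matched GENCODE M21 with their version and 54495 without it. Library totals ran from 11245851 to 25914583 counts; counting error covers the sampling of reads only.

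Groups came from the labels. Genes were filtered with filterByExpr and scaled by TMM, and edgeR 4.0.16 (R 4.3.3, limma 3.58.1) fitted robust quasi-likelihood models to the 6 lean libraries (4 residual degrees of freedom, common dispersion 0.0971), with 2-sided tests and Benjamini-Hochberg adjustment over all tested genes. The difference between diets was fitted over 12 libraries (8 residual degrees of freedom). CPM are TMM-scaled, sums of lists included, except the olfactory and vomeronasal receptor sums, which use unscaled library totals. Standard errors are those the F statistics imply. The tests were tried on simulated data. Named genes were the 12 largest rises and falls among coding genes that averaged 10 CPM or more in the higher group, had no overlap between groups and a call in every fit with 1 library left out, the up to 3 called members of each list with the smallest p in each direction, and fixed sort and lineage genes. Other members of the lists and the gene families were named after their values were seen. The members, lists and design were chosen with earlier results of these data known. Alternatives were DESeq2 1.42.0 and its size factors, other filters, all 21 libraries, voom with group weights, coding genes alone, a replicate block and each library left out. Libraries of MHCII-low and CD11c-positive macrophages entered only the fit of all 21 libraries. Some results are not reported here.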

Additional observations from a re-analysis of the deposited data

Results flagged for a closer look

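For 17 genes among those named or with the largest differences, the contrast of monocyte-derived over CD11c-negative cells differed between lean and obese mice (edgeR's quasi-likelihood test of the difference over 12 libraries, Benjamini-Hochberg adjustment). Each difference is the lean log2 fold change minus the obese one.

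In 10 genes the lean contrast was the lower one: the differences were -4.11 for Mmp9, a matrix protease (lean -4.62, obese -0.51), -3.64 for Tlr5 (lean -3.17, obese 0.47), -3.53 for Dnase1l3, a secreted nuclease (lean -3.42, obese 0.12), -3.35 for Cd38, an NAD hydrolase (lean -4.30, obese -0.95), and -3.26 for Hpgds, the prostaglandin D synthase of blood cells (lean -5.61, obese -2.35). They were -3.23 for Ms4a14 (lean -6.85, obese -3.62), -2.99 for Pla2g2d (lean -6.28, obese -3.29), -1.47 for Cd163 (lean -2.75, obese -1.28) and, with a rise on both diets, -2.23 for Cd209a (lean 2.42, obese 4.66). Timd4 likewise differed by -2.08 (lean 0.81, obese 2.89). Mmp9 stood at 11.8 ± 11.4 CPM in lean monocyte-derived samples and 296 ± 54.5 CPM in lean CD11c-negative cells, against 4.33 ± 0.51 CPM in obese monocyte-derived cells and 6.15 ± 1.73 CPM in obese CD11c-negative cells (SD, n = 3 each).

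In 7 genes the lean contrast was the higher one: the differences were 2.24 for Itgax (lean 4.23, obese 1.99), 3.12 for Il7r (lean 3.43, obese 0.31), 3.16 for Cd9 (lean 2.46, obese -0.70), 3.44 for Serpinb6b (lean 3.10, obese -0.34), 3.85 for Plxdc1 (lean 2.21, obese -1.64), 3.88 for Nrcam (lean 1.21, obese -2.67) and 5.19 for Myh15 (lean 3.19, obese -1.99). The Itgax difference is no separate result, since the CD11c-negative gate selected cells without CD11c on both diets. Of the 12 fits with 1 library left out, the call held in 2 for Ms4a14 and Serpinb6b, 3 for Timd4 and Myh15, 5 for Cd209a, 6 for Nrcam and 9 for Mmp9, and in all 12 for the other 10 genes.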

How the results depend on the processing

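The count of 5386 calls became 10027 in the fit of all 21 libraries, whose dispersion (0.0502) lies below that within lean monocyte-derived cells, 3471 among genes that averaged 10 CPM or more (an alternative chosen after seeing the data), and 3368 to 9012 with 1 library left out. Rises (2469) numbered 3818 with no filter, 4416 with DESeq2, 5415 with all 21 libraries, 1249 at 10 CPM and 1219 to 4636 with a library left out. Falls (2917) numbered 4612 with all 21 libraries and 2149 to 4376 with a library left out. For the difference between diets (643), counts were 1459 with all 21 libraries and 229 to 2371 with a library left out. DESeq2, voom, coding genes alone and the fit with no filter were not run for that difference.

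Of 183 named genes that were called, 150 kept direction and call in all 14 alternatives, 33 lost the call in at least 1 and none reversed; 92 of the 110 losses came from leaving out a library. Signs turned only in uncalled values: Ciita was -0.05 with no filter and -0.02 to 0.10 with a library left out (-0.02 without monocyte-derived replicate 3, -0.00 without CD11c-negative replicate 2), and Ly6c2 was -0.30 to 0.54. The differences between diets ran from -0.99 to 0.25 for Ccr7, -0.87 to 1.06 for Il12b, -1.81 to 0.17 for Sept3, -0.27 to 0.31 for Zbtb46 (0.01 with DESeq2 size factors and with all 21 libraries, 0.05 with at least 1 CPM in 3 libraries) and -0.47 to 0.27 for Adgre1. The cause of these changes was not tested, beyond the fewer samples or other genes that each alternative holds. At totals of 11245851 to 25914583 counts per lean library, a weakly expressed gene without a call is not shown to be equal.

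Equal replicate numbers are not said to pair libraries, and the main fit took the libraries as unpaired. The sample descriptions carry the same numbers, with the same gap, in both of these lean populations, but do not say what the numbers stand for. Deviations from the group means correlated at 0.0711, 0.287 and 0.344 for equal numbers and at -0.37 to 0.0555 for unequal ones, so each library correlated best with its own number. The shared numbers and these correlations are hints at pairing, not a stated design. With a replicate block 6116 genes were called, 5218 of them also called without it, and 1095 differed between diets, where Adgre1 was -0.04.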

Other observations

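Gene families chosen after their values had been seen gave counts that the lists did not hold, to be read beside the shares of all tested genes called, 12.4% higher and 14.7% lower. Of 14 tested killer lectin-like receptor genes, best known from NK cells, 9 were higher in monocyte-derived cells and none lower, with a median log2 fold change of 2.94; besides those named in the report they included Klri2 (5.32) and Klra2 (2.50). Of 11 tested CD300 genes, which encode lipid-binding receptors of myeloid cells, 7 were lower and 2, Cd300lg and Cd300lf, higher, with the largest falls in Cd300ld4 (-5.12), Cd300ld2 (-5.03) and Cd300ld3 (-4.58). These clusters of paralogs can share reads. In the MS4A family 5 of 11 tested genes were lower, among them Ms4a14 and Ms4a7 (-5.37), and Ms4a4c was higher (3.44).

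Of 8 tested Siglec genes, receptors of sialic acid, Siglecg and Siglecf (4.86) were higher and 4 were lower: Siglec1, Siglech, Cd33 (-3.66) and Siglece (-2.01). Purinergic receptors, which sense extracellular nucleotides, had 13 members tested, with a median of -0.16 and 6 not called: P2ry10 (4.76) and P2rx5 (3.00) were higher, and P2ry12 (-4.99), P2ry13 (-4.27), P2rx7 (-3.11), P2ry6 (-2.34) and P2ry2 (-2.20) were lower. Of 20 tested semaphorins 4 were higher, led by Sema7a (3.79) and Sema4d (1.94), and 5 were lower, led by Sema6d (-2.67), shares not far from those of all genes. All are calls of edgeR's quasi-likelihood test with Benjamini-Hochberg adjustment over all genes.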
